A study of Mus musculus with 19 samples.

Results

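The urea cycle and amino acid catabolism are described here through 45 genes of 24537 in the deposited count table, taken by gene symbol. They cover the urea cycle with its mitochondrial carriers and the liver's main routes for breaking down tyrosine, tryptophan, serine, histidine, methionine, glycine, proline, lysine and branched-chain amino acids. All 45 symbols were found, and all 45 passed the filter on low counts. Transcripts were measured by poly(A) RNA sequencing of hepatocytes obtained by perfusing the liver. The mice were male wild-type C57BL/6J, 10 labelled as 5 months old and 9 as 24 months old, with 1 library per mouse and no treatment or altered allele named in the labels. They were culled on 2 days, 23 days apart: 5 young and 5 old mice on the first and 5 young and 4 old on the second. By the birth and cull dates in the labels, the young mice were 140 or 163 days old and the old mice 719 or 742 days old. Mice are named by their library numbers.

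Hepatocytes are the body's main site for disposing of amino nitrogen. Ammonia released from amino acids is fixed as carbamoyl phosphate in the mitochondrion, passed through citrulline, argininosuccinate and arginine, and excreted as urea, while the carbon skeletons enter gluconeogenesis, ketone or one-carbon metabolism. Many of these genes are liver enriched and are known to respond to glucagon, glucocorticoids and dietary protein.

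Promoters are printed for the 3 members with the largest age differences (Tat, Bhmt and Tdo2) and for a pair that did not pass (Nags and Hal), so that the start-proximal sequence of genes that moved can be read beside that of genes that did not. They are the RefSeq windows for GRCm38.p6, 250 bases before to 50 after the start. They lie at chr8:109990186-109990485 (plus strand) for Tat, chr13:93637709-93638008 (minus strand) for Bhmt, chr3:81975679-81975978 (minus strand) for Tdo2, chr11:102145263-102145562 (plus strand) for Nags and chr10:93488518-93488817 (plus strand) for Hal. Each is written 5′ to 3′ on the strand of its gene. Capitals mark matches, on either strand, to any of 7 motifs: the TATA box (TATAAA), the CCAAT box (CCAAT), the GC box (GGGCGG), a C/EBP motif (TTGCNNAA), the half-site of the cAMP response element (TGACG), a forkhead motif (TGTTTNC) and the half-site of the glucocorticoid response element (TGTTCT).
Tat promoter: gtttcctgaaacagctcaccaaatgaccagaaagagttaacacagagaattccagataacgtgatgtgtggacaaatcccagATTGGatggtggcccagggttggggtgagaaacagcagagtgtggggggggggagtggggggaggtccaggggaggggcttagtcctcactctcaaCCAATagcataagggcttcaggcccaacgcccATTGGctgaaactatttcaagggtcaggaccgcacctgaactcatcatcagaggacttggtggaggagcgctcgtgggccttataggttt
Bhmt promoter: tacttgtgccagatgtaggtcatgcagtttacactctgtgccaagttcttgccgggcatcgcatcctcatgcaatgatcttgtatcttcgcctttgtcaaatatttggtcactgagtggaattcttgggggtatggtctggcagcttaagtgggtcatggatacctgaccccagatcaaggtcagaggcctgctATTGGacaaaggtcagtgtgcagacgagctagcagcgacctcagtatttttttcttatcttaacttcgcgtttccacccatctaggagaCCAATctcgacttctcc
Tdo2 promoter: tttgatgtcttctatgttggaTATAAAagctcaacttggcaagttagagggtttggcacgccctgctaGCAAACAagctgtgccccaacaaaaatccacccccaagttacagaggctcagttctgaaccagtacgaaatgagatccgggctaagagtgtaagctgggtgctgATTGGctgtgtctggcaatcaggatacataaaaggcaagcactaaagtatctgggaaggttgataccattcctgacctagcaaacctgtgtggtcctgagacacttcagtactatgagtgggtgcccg
Nags promoter: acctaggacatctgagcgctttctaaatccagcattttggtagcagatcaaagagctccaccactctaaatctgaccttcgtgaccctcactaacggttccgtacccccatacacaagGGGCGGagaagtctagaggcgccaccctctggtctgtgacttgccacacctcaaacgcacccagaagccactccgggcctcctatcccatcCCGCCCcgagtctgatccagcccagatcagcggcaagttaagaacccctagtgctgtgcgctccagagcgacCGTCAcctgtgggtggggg
Hal promoter: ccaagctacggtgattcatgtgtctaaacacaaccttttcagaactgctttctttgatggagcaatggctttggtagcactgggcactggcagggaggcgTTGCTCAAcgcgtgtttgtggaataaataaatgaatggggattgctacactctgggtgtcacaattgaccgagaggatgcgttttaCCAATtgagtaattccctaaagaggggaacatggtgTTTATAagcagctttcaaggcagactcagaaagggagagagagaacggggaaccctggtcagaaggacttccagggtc

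In these windows Tat had 3 CCAAT boxes, first bases at -168, -72 and -40 from the start. Bhmt had 2, at -56 and 34. Tdo2 had a CCAAT box at -78, a forkhead motif at -182 and a TATA box letter match at -229. Nags had 2 GC boxes, at -132 and -41, and a cAMP response half-site at 32, and Hal had a C/EBP motif at -150, a CCAAT box at -64 and a TATA box at -28. A window was found for 33 of the 45 members, 19 of which were lower in old mice by the test below. A CCAAT box was in 10 of those 19 and in 6 of the other 14, against 37.4% of the 32851 windows of this length. A C/EBP motif was in 2 of 19 and 1 of 14 (10.8% of all windows), and a cAMP response half-site in 2 of 19 and 3 of 14 (20.8%). GC boxes were in 8 of 19 and 8 of 14 (35.7%), TATA boxes in 3 and 2 (13.6%), forkhead motifs in 3 and 1 (20.5%) and glucocorticoid half-sites in 1 and 2 (19%). No motif contains another in full, though the forkhead motif and the glucocorticoid half-site share their first 4 letters. These are letter matches, not bound sites.

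Counts over genes totalled 17381439 to 20287628.5 per library, and the lowest count of any member in any library was 126, for Sdsl, followed by 610 for Amt. The labelled cell type was checked on 9 hepatocyte markers, whose mean log2 CPM (counts scaled to library size) was 12.59 to 12.80 in young and 12.36 to 12.89 in old mice. Of these 9, 2 were higher in old mice (Alb and Apoa1), and none were lower in edgeR after adjustment, with 2 lower at an unadjusted p under 0.05, 2 in DESeq2 and 0 in limma-voom. Young mice 1184, 1186 and 1188 stood apart, with an acute-phase score (mean log2 CPM of 23 acute-phase genes) of 9.42 to 10.72, where the remaining young mice had 5.97 to 6.76 and old mice 6.55 to 8.67. Without these 3 mice Alb lost its call, going from 0.47 to 0.23 (edgeR adjusted p = 0.167). Markers of other liver cells were higher in old mice: 12 of 13 macrophage, 10 of 14 endothelial and 13 of 13 stellate cell genes tested. Their mean log2 CPM ran from 2.50 to 4.92 in young and 1.89 to 7.30 in old mice for macrophages. The ranges were 3.82 to 4.64 and 3.86 to 5.62 for endothelium, and 1.12 to 2.54 and 2.40 to 4.44 for stellate cells. Marker genes of T and NK cells gave -0.02 to 1.48 in young and -1.95 to 3.40 in old mice, and those of B cells -2.25 to 1.17 and -0.35 to 2.53. Of these lists 1 gene each passed the filter, and Cd3e, which did not, reached 4 counts in a young and 50 in an old library. Cd4, the only T and NK cell marker tested, did not differ by the test, at 0.10 (SE 0.51, edgeR adjusted p = 0.90). Neutrophil markers gave -2.30 to 0.64 and -2.26 to 3.10. Csf3r, the only neutrophil marker tested, was higher in old mice, at 2.10 (SE 0.56, edgeR adjusted p = 0.00937). So was Jchain, the only B cell lineage marker tested, at 2.14 (SE 0.52, edgeR adjusted p = 0.00583). Among defining markers that did not pass the filter, S100a9 reached 24 counts in a young and 75 in an old library, and Ly6g reached 0 and 1. Cholangiocyte markers gave 1.48 to 5.74 and 1.92 to 4.37, with 0 of 2 tested passing in edgeR, DESeq2 or limma-voom or at an unadjusted p under 0.05. The part of neutrophil and cholangiocyte RNA in the results was not tested. Old mouse 1187 had the highest other-cell score of all libraries (5.65, against 2.63 to 4.54 in the other old mice).

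The question was how transcripts of this pathway differed between 5 and 24 months. Of the 45 genes, 25 were lower in old mice and 0 were higher, by edgeR's quasi-likelihood test fitted with a term for cull day and adjusted by Benjamini-Hochberg over 12269 genes (threshold 0.05). No member was higher at an unadjusted p under 0.05 either, nor in DESeq2 (28 lower, against 17.2% of all genes) or limma-voom (26 lower, against 15.7%). Over all genes tested 14.5% were lower and 16.3% higher. Most members are abundant, and among the 1241 genes with a mean of at least 100 CPM 27.3% were lower and 4.35% higher, against 24 of the 40 members above that level. The median log2 fold change was -0.38 for the members, -0.003 for all genes tested and -0.12 for the abundant genes. In 42 of 45 members the fitted difference was below 0, with Tat the lowest at -1.10 and Amdhd1 the highest at 0.07.

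**Figure D1:**
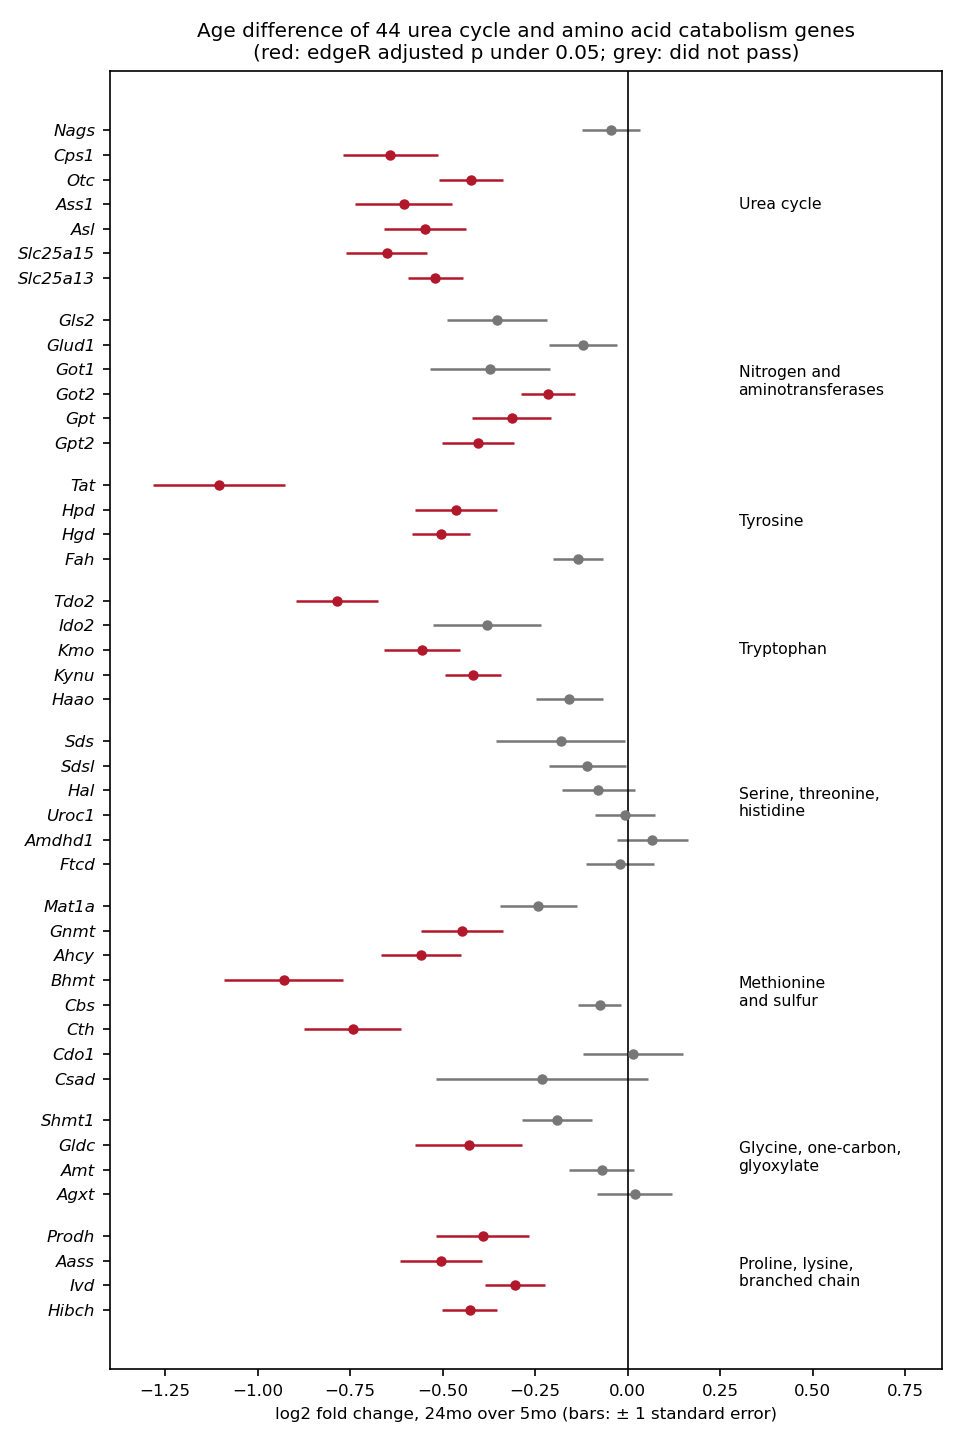
Log2 fold change of 44 of the 45 genes in old over young mice, with 1 standard error on each side, grouped by pathway. Red points passed the edgeR test (24 genes, all to the left of 0) and grey points did not (20 genes). The histidine genes sit around 0.

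Together the 45 genes took 3.11% to 3.63% of counts in young libraries (median 3.33%) and 1.84% to 2.69% in old libraries (median 2.61%). The ranges did not overlap. In bulk RNA, fewer cells of a type and less RNA per cell cannot be told apart. Once the other-cell score was added to the model, 13 of the 45 remained lower, all among the 25, against 5.75% of all genes in that fit. The 13 included Cps1, Slc25a15, Slc25a13, Tat, Hgd, Tdo2, Kmo, Kynu, Bhmt, Cth, Aass and Hibch. The median log2 fold change of the members was -0.25 there, with 33 of 45 below 0. This score did not level the marker genes between the ages. In that fit 9 of 13 macrophage markers were lower and 8 of 13 stellate cell markers higher in old mice. The score itself differed by age, with a mean of 3.05 in young and 4.06 in old mice. Calls kept or lost with this covariate therefore do not show levels at an equal cell mixture. In the mice of the first cull day 7 of 45 were lower (1.79% of all genes), and in those of the second 23 (7.15%). The median log2 fold change of the 45 was -0.39 on the first day and -0.30 on the second, with 40 of 45 below 0 on each. The age by cull day interaction passed for 0 of 45 members in edgeR and for 0% of all genes, with 2 members at an unadjusted p under 0.05 against 6.51% of all genes. Those were Kmo (p = 0.0111) and Tat (p = 0.0372), both with a larger fall on the first day.

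Without young mice 1184, 1186 and 1188, 25 members were again lower (12.5% of all genes), 24 of them the same. Old mice 1187 and 1189 had the lowest mean log2 CPM over the 45 genes, 7.84 and 7.82, against 8.30 to 8.40 in the other old mice and 8.43 to 8.77 in young mice. These 2 mice also had the highest acute-phase scores among old mice, 8.59 and 8.67. Old mouse 1236 was close, at 8.48, with a mean of 8.32 over the 45 genes. Young mice 1184, 1186 and 1188 had higher acute-phase scores, with means over the 45 genes of 8.51, 8.43 and 8.55. Leaving out both, 22 members were lower (11.2% of all genes) with a median of -0.25 and 38 of 45 below 0, and leaving out all 5 of these mice, 28 were (13%). With the acute-phase score in the model 28 were lower (16.7%), which included the 25. Scaling by library totals gave 23 lower members (9.53%) and scaling to the hepatocyte markers 32 (17.7%).

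**Figure D2:**
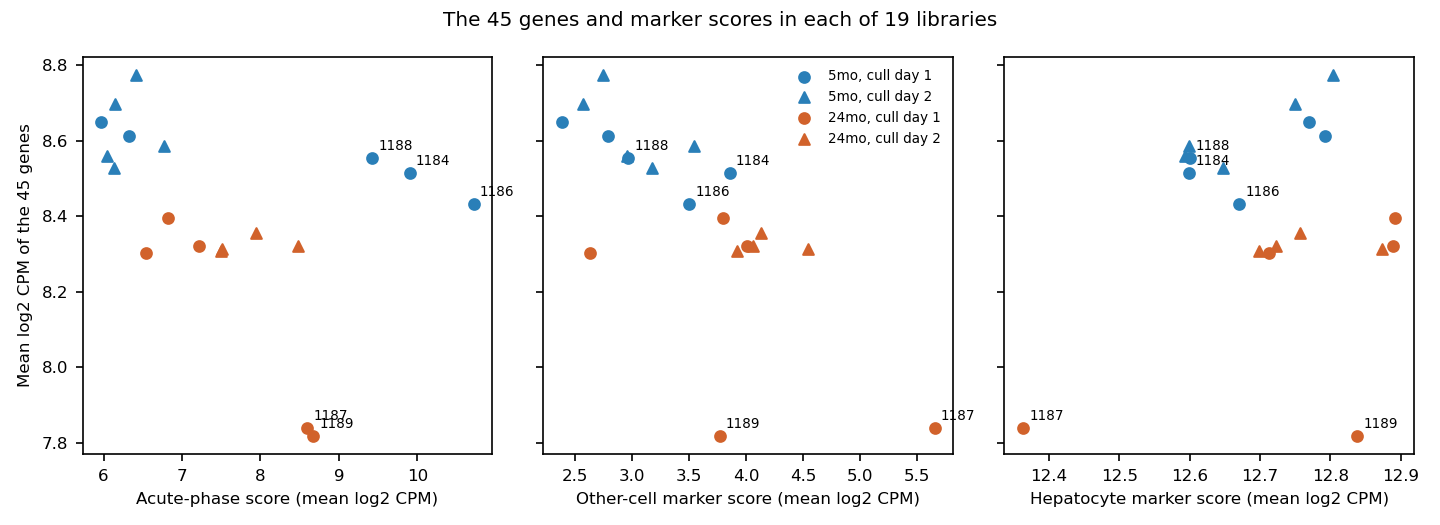
Mean log2 CPM of the 45 genes (vertical axis) in each of 19 libraries against the acute-phase score, the other-cell marker score and the hepatocyte marker score (horizontal axes, mean log2 CPM). All 10 young libraries lie above all 9 old ones, young mice 1184, 1186 and 1188 are far right on the acute-phase axis, and old mice 1187 and 1189 are lowest.

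In the urea cycle, 7 of 8 genes were lower in old mice, against 14.5% of all genes tested. The exception was Nags, which makes N-acetylglutamate, the required activator of carbamoyl phosphate synthetase. The median log2 fold change of the 8 was -0.53. Positions are given on mm10. Cps1 (chromosome 1, 67123027 to 67231267), the synthetase that commits ammonia to the cycle, ranged over 3032 to 5839.7 CPM (median 4173) in young mice and 1821 to 3976 CPM (median 2498) in old mice. Its log2 fold change was -0.64 (SE 0.13, edgeR adjusted p = 0.00177), and 7 of 9 old mice were below every young mouse. Otc (chromosome X, 10252305 to 10321024), which makes citrulline, had 335 to 640.4 CPM (median 525) in young and 295 to 445 CPM (median 386) in old mice, and the groups overlapped more, with 2 old mice below every young mouse and 8 young mice above every old one. The difference was -0.42 (SE 0.086, edgeR adjusted p = 0.00181).

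Ass1 (chromosome 2, 31470270 to 31520670) and Asl (chromosome 5, 130011503 to 130024331) build and split argininosuccinate in the cytosol. For Ass1, young mice had 2607 to 4080.3 CPM (median 2981) and old mice 1001 to 2625 CPM (median 2181), a log2 difference of -0.61 (SE 0.13, edgeR adjusted p = 0.00278). The table also lists a predicted gene, Gm5424, over 50322 of its bases on the same strand with nearly as many counts, 48620.7 against 49021.1 on average, so the reads of these genes cannot be told apart. Asl ran from 313 to 529 CPM (median 410.2) in young to 157 to 336 CPM (median 305) in old mice, with a log2 difference of -0.55 (SE 0.11, edgeR adjusted p = 0.0018). Mouse 1189 was lowest for both.

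The carriers that link mitochondrion and cytosol were lower as well. Slc25a15 (chromosome 8, 22375550 to 22398621), which exchanges ornithine for citrulline, gave 242 to 371 CPM (median 311) in young and 132 to 231 CPM (median 217) in old mice. No old mouse reached the lowest young value, and the fitted difference was -0.65 (SE 0.11, edgeR adjusted p = 0.000429). Slc25a13 (chromosome 6, 6041218 to 6217173), the aspartate and glutamate carrier known as citrin, went from 152 to 218 CPM (median 197) to 106 to 154 CPM (median 134), a difference of -0.52 (SE 0.074, edgeR adjusted p = 0.000125), and -0.33 with the other-cell covariate.

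Nags (chromosome 11, 102145513 to 102149528) had 60.6 to 81.3 CPM (median 73.4) in young and 55.2 to 85.5 CPM (median 71.1) in old mice, and these ranges covered each other almost wholly. Its log2 fold change was -0.05 (SE 0.079, edgeR adjusted p = 0.688), which crossed 0 without the 3 acute-phase young mice (0.03). Beside the urea cycle count, 4 of 8 genes remained lower with the other-cell covariate (5.75% of all genes), and the calls for Otc, Ass1 and Asl were lost. The log2 fold change in that fit was -0.25 for Otc, -0.53 for Ass1 and -0.37 for Asl (edgeR adjusted p = 0.103, 0.0514 and 0.0684). Of the 8 genes 1 was lower in the mice of the first cull day (1.79% of all genes) and 6 in those of the second (7.15%). The log2 fold changes on the first and second day were -0.83 and -0.42 for Cps1, -0.83 and -0.45 for Slc25a15, -0.71 and -0.48 for Ass1, -0.59 and -0.49 for Asl, -0.38 and -0.46 for Otc and -0.45 and -0.59 for Slc25a13.

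**Figure D3:**
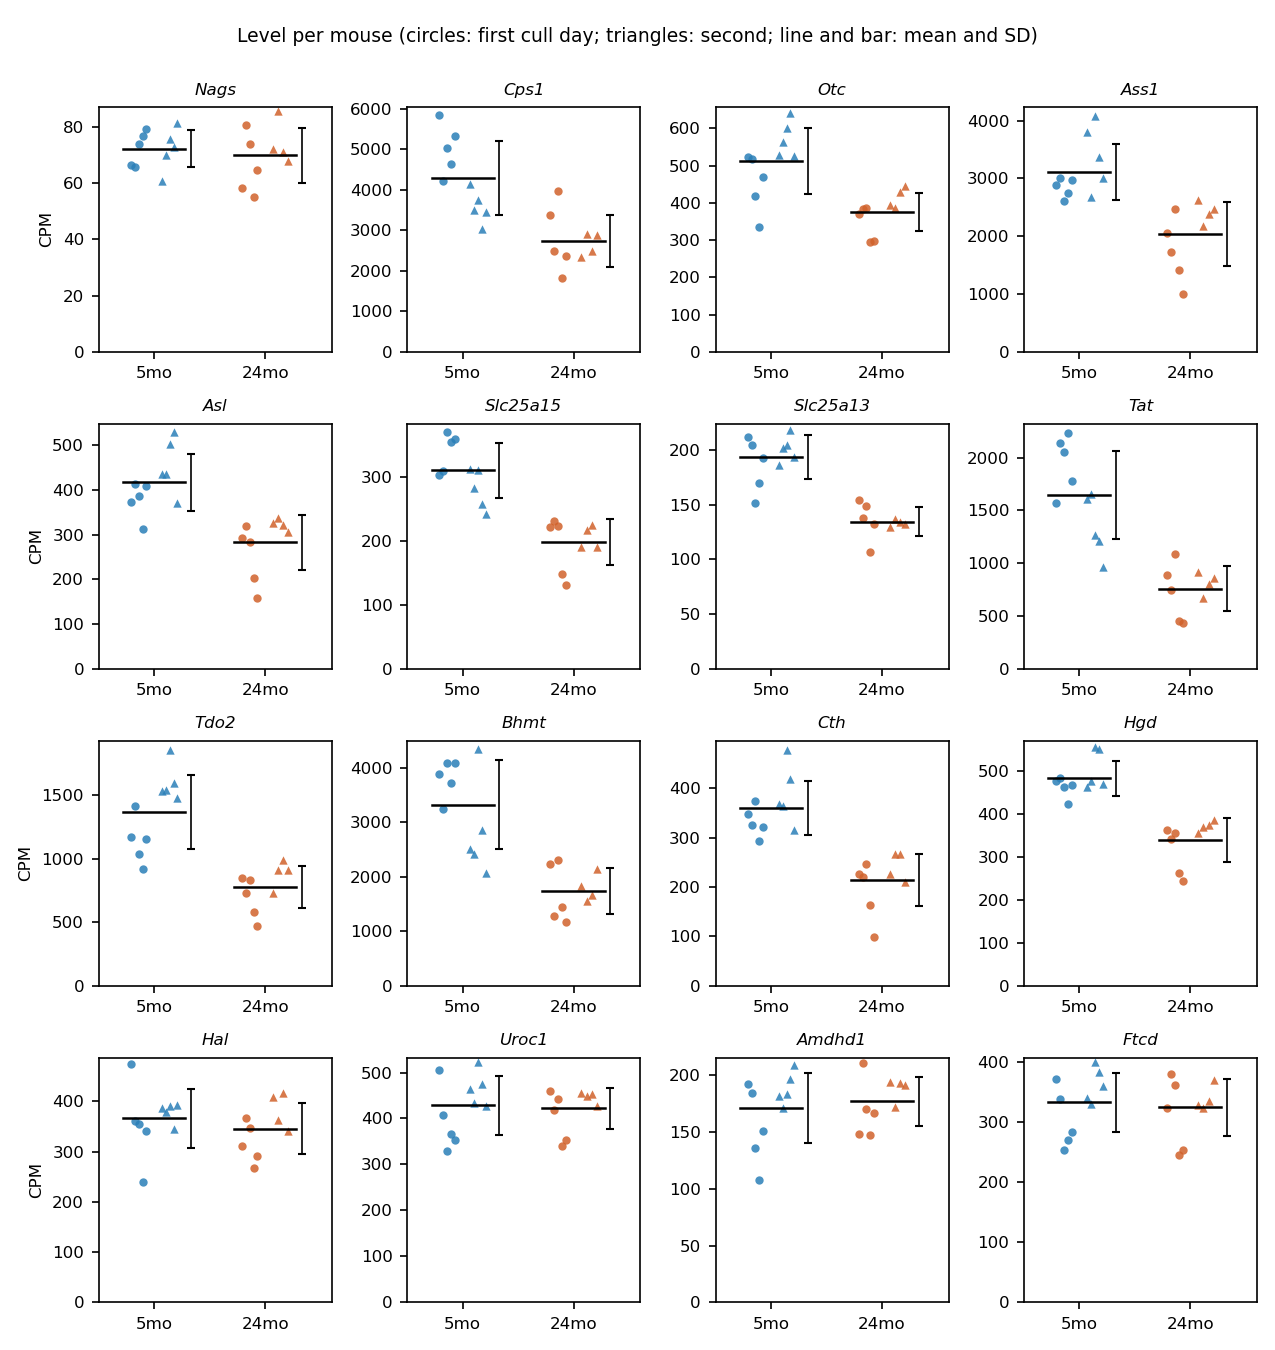
CPM in each mouse (vertical axes from 0) for 7 urea cycle genes, 5 genes with lower levels in old mice (Tat, Tdo2, Bhmt, Cth, Hgd) and the 4 histidine genes, by age. Circles are the first cull day, triangles the second, and the line and bar are the mean and SD of 10 young and 9 old mice. The groups overlap widely for Nags and the histidine genes, and most old mice are lower in the other panels.

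Enzymes that release or shuttle amino nitrogen were lower in 3 of 6 genes, with 0 higher, against 14.5% lower and 16.3% higher over all genes. Gpt2 (chromosome 8, 85492617 to 85527558), the mitochondrial alanine aminotransferase, had 266 to 418 CPM (median 345) in young and 212 to 336 CPM (median 253) in old mice, a log2 difference of -0.40 (SE 0.10, edgeR adjusted p = 0.00515). Gpt (chromosome 15, 76696726 to 76699675), the cytosolic form, changed by -0.31 (SE 0.11, edgeR adjusted p = 0.0331), from 229 to 327 CPM (median 266) to 142 to 271 CPM (median 203). Got2 (chromosome 8, 95864137 to 95888365), the mitochondrial aspartate aminotransferase, changed by -0.21 (SE 0.073, edgeR adjusted p = 0.0313), and its ranges were 417 to 535 CPM (median 498) and 345 to 499 CPM (median 419). Both of these smaller differences sit at the threshold: Gpt failed it when any 1 of 8 mice was left out (1180, 1182, 1187, 1238, 1239, 1240, 1242 or 1243, adjusted p = 0.0516 to 0.0719 in edgeR). Got2 failed it without any 1 of 7 mice (1180, 1182, 1187, 1236, 1238, 1242 or 1243, adjusted p = 0.0502 to 0.0623 in edgeR).

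Got1 (chromosome 19, 43499753 to 43524605), the cytosolic aspartate aminotransferase, had 121 to 249 CPM (median 166) in young and 69.9 to 181 CPM (median 141) in old mice and did not pass, at -0.37 (SE 0.16, edgeR adjusted p = 0.0857). It passed in edgeR without old mouse 1185 or without young mouse 1237 (adjusted p = 0.0458 and 0.0484), but the difference shrank to -0.21 without the 3 acute-phase young mice (edgeR adjusted p = 0.393), to -0.22 without old mice 1187 and 1189 (edgeR adjusted p = 0.258) and to -0.12 without all 5 (edgeR adjusted p = 0.575). Gls2, the liver glutaminase, was at -0.35 (SE 0.13, edgeR adjusted p = 0.0524) and passed without the 3 acute-phase young mice (-0.44, edgeR adjusted p = 0.0334). It was -0.21 without old mice 1187 and 1189 (edgeR adjusted p = 0.143) and -0.15 with the other-cell covariate (edgeR adjusted p = 0.561). Its annotation overlaps Spryd4 on the other strand by 95 bases. Glud1, glutamate dehydrogenase, was at -0.12 (SE 0.091, edgeR adjusted p = 0.329). With the other-cell covariate 0 of the 6 passed, with Gpt2 at -0.22, Gpt at -0.16 and Got2 at -0.07 (edgeR adjusted p = 0.218, 0.433 and 0.619), and without old mice 1187 and 1189 1 of 6 was lower, with Gpt at -0.21 and Got2 at -0.17 (edgeR adjusted p = 0.1 and 0.0992).

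Tyrosine breakdown held the largest difference of all 45 genes. Tat (chromosome 8, 109990436 to 109999804), the tyrosine aminotransferase that opens the pathway, had 965 to 2229 CPM (median 1629) in young mice and 429 to 1082 CPM (median 804) in old mice. In all, 8 of 9 old mice were below every young mouse, and the log2 fold change was -1.10 (SE 0.18, edgeR adjusted p = 0.000324), that is 46.5% of the young level. The first cull day gave -1.44 and the second -0.73. The next enzyme, Hpd (chromosome 5, 123171807 to 123182686), a dioxygenase, went from 1089 to 1597 CPM (median 1281) to 609 to 1193 CPM (median 995), a difference of -0.46 (SE 0.11, edgeR adjusted p = 0.00515).

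Hgd (chromosome 16, 37580153 to 37632026), homogentisate dioxygenase, separated the ages completely, at 423 to 555 CPM (median 474) in young and 243 to 387 CPM (median 357) in old mice. Its log2 fold change was -0.50 (SE 0.078, edgeR adjusted p = 0.000231). Fah, the last enzyme of the route, was at -0.13 (SE 0.068, edgeR adjusted p = 0.139) and did not pass. In all, 3 of 4 tyrosine genes were lower, against 14.5% of all genes. Of these, 2 (Tat and Hgd) remained so with the other-cell covariate (5.75% of all genes), where Hpd was at -0.26 (edgeR adjusted p = 0.193). Non-overlap of this kind, every old mouse below every young mouse, was seen in 4 of the 45 genes (Hgd, Slc25a15, Ahcy and Cth) and in 0.725% of all genes tested.

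Of the 5 genes for tryptophan breakdown through kynurenine, 3 were lower, against 14.5% of all genes. Tdo2 (chromosome 3, 81958414 to 81975728), the liver dioxygenase that opens the pathway, had 916 to 1858 CPM (median 1446) in young and 469 to 988 CPM (median 832) in old mice. The fold change was -0.79 (SE 0.11, edgeR adjusted p = 0.000114) on the log2 scale, with 8 of 9 old mice below every young mouse. Kmo (chromosome 1, 175632193 to 175660853), the kynurenine hydroxylase, ran from 267 to 482 CPM (median 331) in young mice to 198 to 272 CPM (median 237) in old mice, a difference of -0.56 (SE 0.10, edgeR adjusted p = 0.000928). It was -0.79 among mice of the first cull day, -0.29 among those of the second, and -0.37 without the 3 acute-phase young mice (edgeR adjusted p = 0.00249). Kynu (chromosome 2, 43555325 to 43683048), kynureninase, had 182 to 252 CPM (median 211) and 119 to 186 CPM (median 161), a difference of -0.42 (SE 0.075, edgeR adjusted p = 0.000708), and -0.28 in the mice of the second cull day (edgeR adjusted p = 0.0518).

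All 3 remained lower with the other-cell covariate. Haao, which acts after kynureninase, was at -0.16 (SE 0.091, edgeR adjusted p = 0.194). Ido2 (chromosome 8, 24531892 to 24576333), a dioxygenase for the same first step as Tdo2, had 59.8 to 107 CPM (median 85.1) in young and 38.1 to 87.4 CPM (median 65.2) in old mice. It did not pass, at -0.38 (SE 0.15, edgeR adjusted p = 0.0539), but did without any 1 of mice 1181, 1183, 1184, 1185, 1243 or 1244 (adjusted p = 0.0329 to 0.0481 in edgeR). It was smaller with the other-cell covariate (-0.24, edgeR adjusted p = 0.402) and without old mice 1187 and 1189 (-0.24, edgeR adjusted p = 0.155).

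Methionine, betaine and transsulfuration genes were lower in 4 of 8 cases, against 14.5% of all genes. Bhmt (chromosome 13, 93616891 to 93637758), which remethylates homocysteine from betaine, had 2068 to 4336 CPM (median 3481) in young and 1158 to 2310.0 CPM (median 1671) in old mice. Its log2 fold change was -0.93 (SE 0.16, edgeR adjusted p = 0.000535), with -1.17 and -0.65 in the mice of the first and the second cull day. Cth (chromosome 3, 157894248 to 157925063), cystathionine gamma-lyase, which makes cysteine, went from 294 to 477 CPM (median 356) in young to 99.0 to 268 CPM (median 225) in old mice with no overlap, and by -0.74 (SE 0.13, edgeR adjusted p = 0.000623). Mouse 1189 had the lowest Cth value of all.

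Ahcy (chromosome 2, 155059312 to 155074497), which splits S-adenosylhomocysteine, also separated the ages, at 1463 to 1991 CPM (median 1725) and 773 to 1373 CPM (median 1234), a difference of -0.56 (SE 0.11, edgeR adjusted p = 0.00133). Gnmt (chromosome 17, 46725664 to 46729165), the glycine methyltransferase that consumes S-adenosylmethionine, had 1104 to 1964 CPM (median 1353) and 686 to 1374 CPM (median 1051), a difference of -0.45 (SE 0.11, edgeR adjusted p = 0.00676). Cbs (chromosome 17, 31612623 to 31637205), cystathionine beta-synthase, had 512 to 637 CPM (median 575) in young and 421 to 606 CPM (median 550.4) in old mice and did not pass, at -0.08 (SE 0.059, edgeR adjusted p = 0.344).

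Mat1a, which makes S-adenosylmethionine, was at -0.24 (SE 0.11, edgeR adjusted p = 0.0874). Cdo1, which oxidizes cysteine, and Csad, which decarboxylates the product on the way to taurine, were at 0.01 (SE 0.13, edgeR adjusted p = 0.945) and -0.23 (SE 0.29, edgeR adjusted p = 0.567). Csad had the widest spread relative to its mean, with 109 to 738 CPM (median 483) in young mice and 181 to 606 CPM (median 371) in old mice. With the other-cell covariate Bhmt and Cth passed, and Ahcy (-0.35, edgeR adjusted p = 0.0646) and Gnmt (-0.28, edgeR adjusted p = 0.187) did not.

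Of the 6 genes for serine, threonine and histidine, 0 were lower and 0 higher after adjustment, against 14.5% and 16.3% of all genes. The same held in edgeR without adjustment (0 under 0.05), in DESeq2 (0) and in limma-voom (0). Histidine ammonia-lyase, Hal (chromosome 10, 93488768 to 93516761), had 239 to 475 CPM (median 369) in young and 266 to 416 CPM (median 348) in old mice, a log2 difference of -0.08 (SE 0.10, edgeR adjusted p = 0.568). Uroc1, urocanate hydratase, had 329.9 to 523 CPM (median 430.2) and 341 to 459 CPM (median 442), at -0.01 (SE 0.081, edgeR adjusted p = 0.953). Amdhd1 and Ftcd, the next enzymes of the histidine route, were at 0.07 (SE 0.10, edgeR adjusted p = 0.625) and -0.02 (SE 0.093, edgeR adjusted p = 0.885). In these 4 genes at most 2 old mice lay below every young mouse.

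Sds, the serine dehydratase, had 90.1 to 196 CPM (median 135) in young mice and 44.4 to 156 CPM (median 115) in old mice, at -0.18 (SE 0.17, edgeR adjusted p = 0.453); its annotation overlaps Plbd2 on the other strand by 13 bases. Sdsl (chromosome 5, 120458202 to 120472763), its paralog, had 9.17 to 13.8 CPM (median 11.1) and 6.46 to 13.0 CPM (median 10.8), at -0.11 (SE 0.10, edgeR adjusted p = 0.447), and its sign turned on the second cull day alone (0.02). The standard errors of the 6 genes ran from 0.081 for Uroc1 to 0.17 for Sds.

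Among glycine, one-carbon and glyoxylate genes 1 of 4 was lower, a count near the background. Over all genes tested 14.5% were lower, and 27.3% among those with a mean of at least 100 CPM. Gldc (chromosome 19, 30098441 to 30175441), the decarboxylase of the glycine cleavage system, had 152 to 257 CPM (median 191) in young and 81.6 to 198 CPM (median 159) in old mice, a difference of -0.43 (SE 0.14, edgeR adjusted p = 0.0299). Without old mice 1187 and 1189 together 0 of the 4 genes passed, and Gldc was at -0.28 (edgeR adjusted p = 0.0842). Gldc lost the call without any 1 of mice 1180, 1187, 1235 or 1242 (adjusted p = 0.0509 to 0.0606 in edgeR). With the other-cell covariate 0 of the 4 passed, and Gldc was at -0.28 (edgeR adjusted p = 0.308). Its partner in the same complex, Amt, was at -0.07 (SE 0.089, edgeR adjusted p = 0.574), Shmt1, which moves one-carbon units from serine, at -0.19 (SE 0.095, edgeR adjusted p = 0.132), and Agxt, which detoxifies glyoxylate, at 0.02 (SE 0.10, edgeR adjusted p = 0.904).

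All 4 genes for proline, lysine and branched-chain breakdown were lower, against 14.5% of all genes. Aass (chromosome 6, 23072173 to 23132986), the bifunctional enzyme that opens lysine breakdown, had 217 to 408 CPM (median 275) in young and 146 to 251 CPM (median 196) in old mice, a difference of -0.50 (SE 0.11, edgeR adjusted p = 0.00316). It was -0.30 in the mice of the second cull day and -0.30 without the 5 mice that stood apart, and passed in both. Hibch (chromosome 1, 52845038 to 52920986), a hydrolase in valine breakdown, had 59.99 to 87.6 CPM (median 73.6) and 42.1 to 63.6 CPM (median 57.6), a difference of -0.43 (SE 0.075, edgeR adjusted p = 0.000581). Prodh (chromosome 16, 18071726 to 18089190), proline dehydrogenase, changed by -0.39 (SE 0.12, edgeR adjusted p = 0.0238), from 97.6 to 142 CPM (median 125) to 50.5 to 124 CPM (median 96.1), and was not called without the 3 acute-phase young mice, at -0.37 (adjusted p = 0.0675 in edgeR), and was -0.25 without old mice 1187 and 1189 (adjusted p = 0.0339 in edgeR). Ivd (chromosome 2, 118862000 to 118881357), isovaleryl-CoA dehydrogenase of leucine breakdown, changed by -0.30 (SE 0.082, edgeR adjusted p = 0.0104), from 137 to 196 CPM (median 159.7) to 94.3 to 144 CPM (median 134). With the other-cell covariate Aass and Hibch passed, and Prodh (-0.28, edgeR adjusted p = 0.254) and Ivd (-0.08, edgeR adjusted p = 0.535) did not.

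Pairs of related genes were then set against each other within each mouse. A ratio of 2 genes in 1 library does not depend on the scaling between libraries. These 4 pairs were picked because their calls differed, so the ratios are given as a description, and no p-value is reported for them. Each difference is the old minus the young mean, taken within each cull day and averaged over both days. Cth over Cbs, the second over the first step of transsulfuration, was -0.93 to -0.32 on the log2 scale in young mice and -2.40 to -1.06 in old mice, with no overlap. The difference was -0.69, and -0.55 without mice 1187 and 1189.

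Cps1 over Nags, the synthetase over the source of its activator, was 5.38 to 6.46 in young and 4.95 to 5.86 in old mice, a difference of -0.61. On the first and second day the difference was -0.74 and -0.65 for Cth over Cbs, and -0.75 and -0.47 for Cps1 over Nags. Tdo2 over Ido2 was 3.29 to 4.62 in young and 3.18 to 4.26 in old mice, a difference of -0.40, with wide overlap. Got2 over Got1 was 1.07 to 2.01 in young and 1.11 to 2.60 in old mice, and its difference of 0.14 had opposite signs on the cull days, at 0.45 and -0.17.

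**Figure D4:**
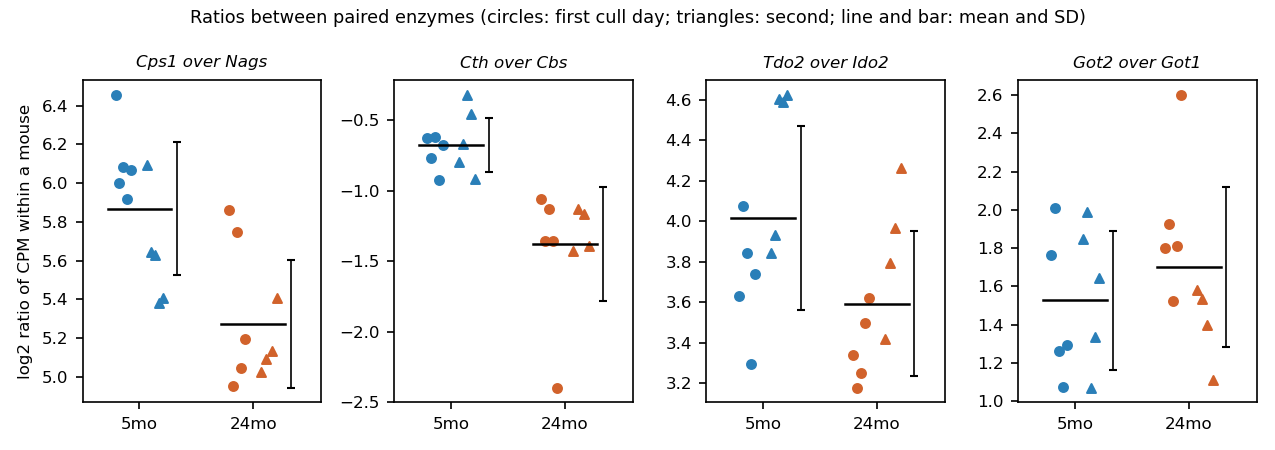
Log2 ratio of CPM between 2 genes within each mouse (vertical axes), by age, for Cps1 over Nags, Cth over Cbs, Tdo2 over Ido2 and Got2 over Got1. Lines and bars are means and SDs of 10 young and 9 old mice; Cth over Cbs separates the ages and Got2 over Got1 does not.

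Levels of different genes were compared per length, as counts per kilobase of annotated exon scaled to the same sum in every library. On that scale Ass1 was highest in young mice, at 3362 ± 456 (SD, n = 10), followed by Bhmt at 2817 ± 713 and Gnmt at 2479 ± 419. The level of Ass1 is uncertain, since its reads cannot be told apart from those of Gm5424. Ass1 and Bhmt, and Bhmt and Gnmt, differed by less than the larger of their SDs. In old mice these 3 stood at 2320.2 ± 560.2, 1551 ± 344 and 1904 ± 346 (SD, n = 9), so that Gnmt was above Bhmt there, by a gap close to their SDs. The lowest members in young mice were Sdsl (16.2 ± 1.87), Ido2 (49.01 ± 9.58) and Amt (58.6 ± 8.21).

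Apart from age, 6 of 45 genes were higher on the second cull day and 0 lower in edgeR, against 5.72% and 6.55% of all genes tested. They were Otc (0.30 on the log2 scale), Gls2 (0.41), Tdo2 (0.43), Haao (0.33), Sdsl (0.35) and Gnmt (0.37). The acute-phase young mice 1184, 1186 and 1188 were all culled on the first day, and without them 0 of 45 passed. The count fell to 1 without mouse 1239, 1242 or 1243, to 2 without 1184, 1188 or 1189, and to 3 without 1186 or 1236, and rose to 10 without mouse 1183.

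After age and cull day were removed, members still varied together among mice. Pearson's r of the residual log2 CPM over 19 libraries is given as a description, since these libraries share depth, cell mixture and the 5 mice that stood apart. Asl was most like Prodh (r = 0.92), Ass1 like Prodh (0.86) and Otc like Ftcd (0.82). Cps1 was most like Aass (0.67) and Nags like Kynu (0.55). The median r of each of these 5 with the other 44 members ran from 0.18 for Nags to 0.63 for Otc.

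The other genes of the pathway were read from 3 lists, of which 102 of 104 genes passed the filter on low counts (not Dao and Slc25a2). Of 62 further catabolic enzymes tested, 31 were lower (14.5% of all genes) and 0 higher in edgeR, where 1 had an unadjusted p under 0.05 for a rise (0 higher in DESeq2 and limma-voom), with a median log2 fold change of -0.25. By smallest p they were led by Aadat, an aminotransferase for kynurenine and aminoadipate, which had 85.8 ± 11.0 CPM (SD, n = 10) in young and 48.1 ± 8.58 CPM (SD, n = 9) in old mice, a difference of -0.84 (SE 0.10, edgeR adjusted p = 4.39e-05). With the other-cell covariate 6 of the 62 were lower (5.75% of all genes), and without old mice 1187 and 1189, 23 were (11.2%). In the mice of the first cull day 2 were, close to the 1.79% of all genes, and in those of the second 29 (7.15%).

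Of 20 amino acid transporters tested, 6 were lower and 0 higher in edgeR, where 1 had an unadjusted p under 0.05 for a rise (0 higher in DESeq2 and 1 in limma-voom). Over all genes 14.5% were lower. Slc25a22, a mitochondrial glutamate carrier, changed by -0.33 (SE 0.068, edgeR adjusted p = 0.00188), and Slc38a2, a plasma membrane carrier of neutral amino acids, by -0.56 (SE 0.13, edgeR adjusted p = 0.00455). Without the 3 acute-phase young mice 3 of the 20 were lower (12.5% of all genes) and 1 was higher, Slc3a1, at 0.86 (edgeR adjusted p = 0.00066). With the other-cell covariate Slc25a22 and Slc38a2 were lower (5.75% of all genes). The counts of lower genes in these fits lie near the background.

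Of 20 regulators tested, 6 were lower and 0 higher in edgeR, where 1 had an unadjusted p under 0.05 for a rise (0 higher in DESeq2 and limma-voom). The share over all genes was 14.5% lower. Klf15, a transcription factor known to drive amino acid catabolism genes in liver, had 134 ± 19.3 CPM (SD, n = 10) in young and 87.0 ± 16.4 CPM (SD, n = 9) in old mice, at -0.63 (SE 0.11, edgeR adjusted p = 0.000457). Foxo3, a forkhead factor restrained by insulin, changed by -0.72 (SE 0.20, edgeR adjusted p = 0.0109) from 11.5 ± 4.80 CPM (SD, n = 10). Beside these 6, the receptors for glucagon and glucocorticoids did not pass, with Gcgr at -0.13 (SE 0.092, edgeR adjusted p = 0.311) and Nr3c1 at -0.02 (SE 0.082, edgeR adjusted p = 0.846). Without old mice 1187 and 1189, 3 of the 20 were lower (11.2% of all genes), and with the other-cell covariate 2 were lower (5.75%) and 1 higher, counts near the background. In the latter fit Klf15 passed, and Foxo3 did not, at -0.69 (edgeR adjusted p = 0.0971). The other gene lower there, Cebpb, was not among the 6. In the mice of the first cull day 0 were lower (1.79% of all genes) and in those of the second 5 (7.15%).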

How the data were processed

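The authors deposited 1 table of estimated counts per gene for the 19 libraries. Per the file headers HOMER's analyzeRepeats.pl made it on mm10, counting exons of RefSeq transcripts, condensed to genes and left raw; per the submitters' processing notes STAR and HOMER were used, with versions and strand setting not given in the sources used here. Counts were multiples of 0.5 (29.25% not whole) and were rounded; the planned tests, meant for whole counts, were kept. Other columns, such as the deposited exon length, come from the same file. Genes were tested with edgeR 4.0.16 (R 4.3.3; trimmed mean of M-values scaling, filterByExpr with a minimum count of 10, cull day as covariate, threshold 0.05 after Benjamini-Hochberg adjustment over 12269 genes), first on simulated data. CPM used the same scaling. Standard errors are the absolute log2 fold change over the square root of F. Scores are mean log2 CPM with a prior count of 2; the other-cell score used 42 tested markers of macrophages, endothelium, stellate, T and NK, and B cells. Alternatives used DESeq2 1.42.0 and limma 3.58.1, other scaling, filters and sets of mice. Ages share no replicate numbers, so no mice were paired; that libraries are separate mice rests on the labels.

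The members, lists, motifs and libraries left out were chosen with earlier results of these data known. Named members were chosen as the 6 urea cycle enzymes, up to 4 called genes per group by p (or the smallest p where none was called) and both genes of any of 5 pairs whose calls differed; from each further list, the 2 called genes of smallest p in each direction; some genes are not reported here. Any other gene named, such as the histidine genes, Gcgr, Nr3c1, Slc3a1, Cebpb or the marker genes, was chosen after its values were seen. Coordinates are those of the deposited table on mm10, counted from 1. Python 3.11.15 with numpy 2.4.6, pandas 2.3.3 and matplotlib 3.10.9 was used for ratios, motifs and figures.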

Additional observations from a re-analysis of the deposited data

Results flagged for a closer look

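The 30 members chosen by the naming rule were examined in each age group, 60 groups in all, for a highest or lowest mouse lying far from the rest by Dixon's criterion on the gap to its neighbour over the range. Chance gives about 1 such group in 20. There were 2, both for Ivd: young mouse 1180 was highest at 196.5 CPM, with the next at 167.9 CPM, and old mouse 1187 was lowest at 94.27 CPM, with the next at 120.6 CPM.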

How the results depend on the processing

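The count of 25 lower members was 7 on the first cull day alone and 13 once the other-cell score was in the model, and 22 to 32 under the remaining alternatives (22 to 28 leaving out each mouse). The 43 of 102 further pathway genes became 2 on the first cull day (1.79% of all genes were lower there) and 11 with that covariate (10 lower and 1 higher, against 5.75% of all genes lower), and 36 to 48 leaving out each mouse. Without old mice 1187 and 1189, 30 of them were lower (11.2% of all genes). The highest count under any alternative was 54. The first-day fit has 10 mice and the second-day fit, with 23 lower members, has 9. Over 35 alternatives each, the 25 called members kept their direction in all 875 fits and their call in 812. The fit without old mouse 1187 is counted more than once among these. The uncalled Nags turned above 0 on the second cull day (0.045), with the other-cell covariate (0.068), without mice 1184, 1186 and 1188 (0.027), without 1187 and 1189 (0.017) and without all 5 (0.061); Sdsl did so on the second cull day (0.019). Got2 over Got1 turned to -0.062 without mice 1184, 1186 and 1188 and to -0.169 on the second cull day. Members higher on the second cull day numbered 6, but 3 with no filter, 0 without mice 1184, 1186 and 1188, and 1 to 10 leaving out each mouse. The interaction count was 0 in all 25 alternatives. The causes were not tested. Scaling by library totals moved the median of all genes from -0.003 to 0.042 and gave 23 lower members; scaling to hepatocyte markers moved it to -0.062 and gave 32. No paired analysis was possible because the ages share no replicate numbers. Depth limits Sdsl most, at 9.17 to 13.8 CPM in young mice.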

Other observations

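Zonation genes were read beside the members, since urea synthesis and histidine breakdown are known from the periportal part of the liver lobule. The lists hold 10 genes each, and Hal, Sds and Gls2 are in both the members and the periportal list. Of the periportal genes 2 were lower and 2 higher in old mice in edgeR after adjustment: Cyp2f2, a cytochrome P450, at -0.57, and Pck1, the gluconeogenic carboxykinase, at -0.50, against Hsd17b13 at 0.31 and Alb at 0.47. Without young mice 1184, 1186 and 1188 the call held for Cyp2f2, while Pck1 was at -0.42, Hsd17b13 at 0.17 and Alb at 0.23 (edgeR adjusted p = 0.0983, 0.109 and 0.167). Of the pericentral genes 4 were lower and 0 higher (0 higher also at an unadjusted p under 0.05 and in DESeq2 and limma-voom): Cyp1a2 at -0.91, Lgr5 at -0.70, Oat at -0.59 and Gulo at -0.43. These 4 were also lower without the same mice. The values are log2 fold changes, and over all genes tested 14.5% were lower and 16.3% higher. Whether zonation differed between the ages was not tested.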
